A study of Homo sapiens with 6 samples.

Results

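The genes described here are fibroblast growth factor (FGF) genes measured in MO3.13 cells with and without Klotho. A list of 10 was set (FGF1, FGF2, FGF5, FGF7, FGF9, FGF11, FGF18, FGF19, FGF21 and FGF23), and a gene was taken as measured where at least 1 probe set of the array was annotated with its symbol alone. This left 8 of the 10 listed genes, out of 14232 genes that could be measured in the same way. FGF2, the basic FGF best known for keeping oligodendrocyte precursors dividing, was covered only by 2 probe sets annotated together with NUDT6, which lies antisense to it. FGF7, a ligand made by mesenchymal cells for epithelia, was covered only by 1 probe set annotated together with the related copies FGF7P3 and FGF7P6. No value is given for either gene. Each of the other 8 had exactly 1 probe set of its own. FGF5 and FGF11 each had 1 further probe set, annotated together with CFAP299 and CHRNB1 respectively, and no value is given for these.

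MO3.13 is an immortal human line that the submitters call an oligodendroglioma line and that is generally described as a fusion of a rhabdomyosarcoma line with oligodendrocytes of adult brain. The Klotho group consisted of 3 arrays of MO3.13 cells that received recombinant mouse Klotho at 0.4 µg/mL for 3.5 h in DMEM without serum. The control group consisted of 3 arrays of MO3.13 cells described only as grown in DMEM with 10% fetal bovine serum, the medium named for growth of both groups. Klotho and the removal of serum therefore cannot be told apart in these labels. Antibiotics, glutamine and pyruvate were named for both groups, and no vehicle was named for the controls.

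The array medians lay between 6.36 and 6.47 on the log2 scale, and pairs of arrays had correlations of 0.985 to 0.991 over the probe sets. Of 8 oligodendrocyte markers, 7 were measured, and CNP was the only one above the median signal of all probe sets (6.40), at 8.81 in Klotho cells and 8.83 in control cells. MOG lay below their lower quartile (4.70), with MBP, MAG, OLIG1, OLIG2 and SOX10 between. Of 8 skeletal muscle markers, 5 were above that median (DES, MYOD1, MYOG, CHRNA1 and ACTC1), MYF6 and PAX7 lay between it and the lower quartile, and MYF5 lay below the lower quartile. Of 6 astrocyte markers, SLC1A3 was above the median and AQP4, SLC1A2 and GJA1 were below the lower quartile. Of 3 measured neuron markers 0 were above the median, and all 4 microglia markers were below the lower quartile. Summed signals of the oligodendrocyte markers ranged from 40.7 to 42.1 in Klotho arrays and from 41.0 to 41.7 in control arrays. Those of the muscle markers ranged from 63.9 to 64.3 in Klotho arrays and from 64.0 to 64.4 in control arrays.

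FGFs share a folded core and fall into groups by how far they travel and what they bind. Paracrine FGFs hold on to heparan sulfate near the cell that releases them and activate FGF receptors together with it. Endocrine FGFs bind heparan sulfate weakly, circulate as hormones and need a Klotho protein as co-receptor: FGF23 uses Klotho itself, FGF19 and FGF21 use beta-Klotho. Intracellular FGFs, to which FGF11 belongs, are not secreted and are known mainly as partners of voltage-gated sodium channels, so FGF11 is neither paracrine nor endocrine. In oligodendrocyte biology, FGF signalling is known for driving precursors to divide and for acting on myelin formation.

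No difference between Klotho and control cells passed the test for any of the 8 measured FGF genes. In limma, fitted over all 22011 probe sets with Benjamini-Hochberg adjustment, 0 of the 8 passed an adjusted p of 0.05, and each had an adjusted p of 0.998. Over all probe sets 0 passed as well, a background of 0.0%. Without adjustment, 0 of the 8 FGF genes had a p under 0.05, against 2.07% of all genes. The Klotho and control values overlapped for all 8, and they did not overlap for 7.89% of all genes. Neither share is large enough for 0 of 8 to set the FGF genes apart. The differences, Klotho minus control, ran from -0.14 for FGF11 to 0.18 for FGF23, with a median of 0.01, beside a median of -0.03 over all genes. As deposited, 5 were above 0 and 3 below, as they were with quantile normalization and with cyclic loess. Centring the arrays on their medians gave 7 and 1. Of all genes, 62.6% were below 0 as deposited, 46.8% with quantile normalization, 50.3% with cyclic loess and 42.7% with median centring. Nothing in the labels tells separate cultures from repeat preparations of 1 culture, so the p-values reflect spread among these samples and possibly only technical spread. A change in RNA per cell and a change in the share of cells that make the transcript cannot be told apart in RNA of whole cultures.

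**Figure D1:**
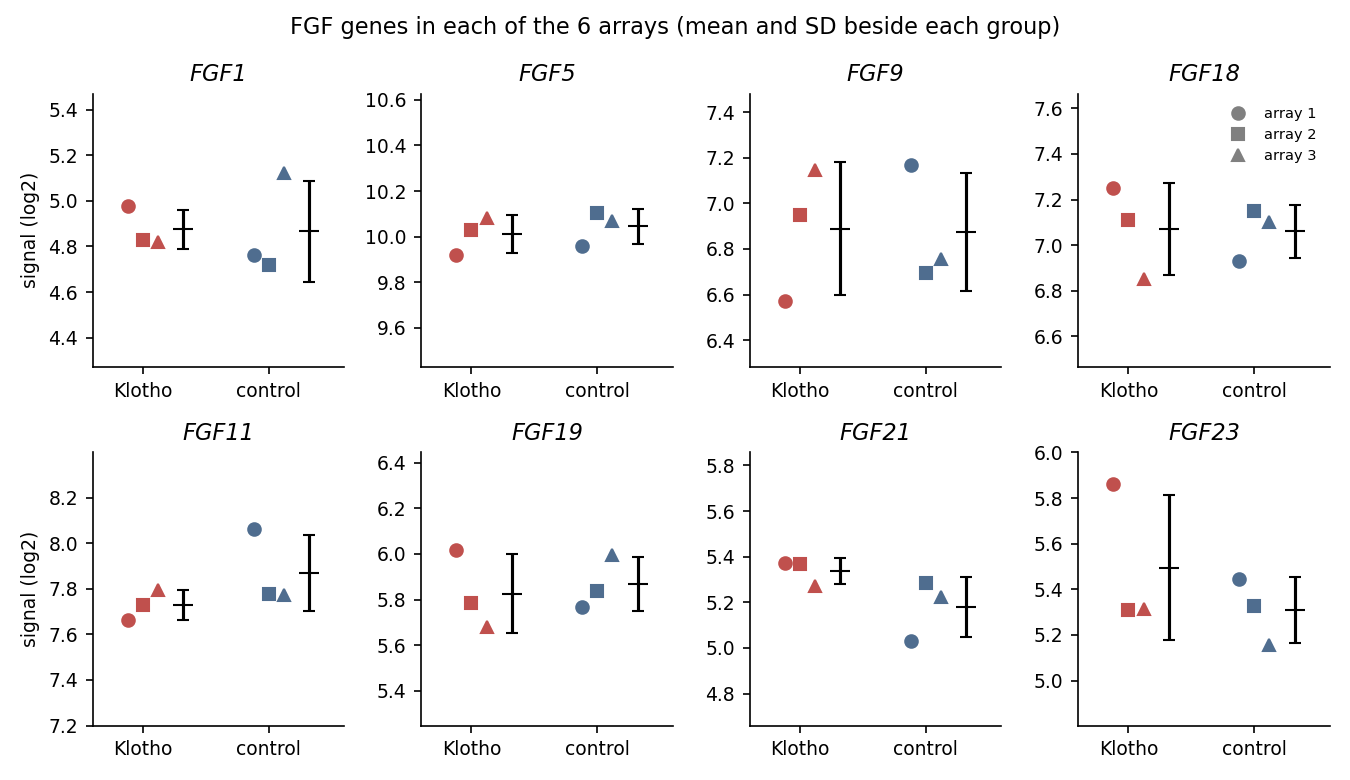
Log2 signal of the 8 measured FGF genes in each array (y axis; every panel spans the same 1.2 units, at its own level), Klotho arrays in red on the left and control arrays in blue on the right; circles, squares and triangles are arrays 1, 2 and 3, and the dash with bars is the mean ± SD of each group (n = 3). The groups overlap in every panel, and the single point farthest from the rest is Klotho array 1 for FGF23, at 5.86.

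The signal of the probe sets differed widely between the genes. Brightness depends on the probes as well as on the transcript, so it orders probe sets and not amounts of RNA. As a gauge, the 220 measured olfactory receptor genes, which are not normally transcribed outside the nose, had a median signal of 3.32, with 4.93 at their 90th percentile and 5.09 at their 95th. FGF1, at a mean of 4.87 over the 6 arrays, was the only FGF gene at or below that 90th percentile, and 10.5% of the olfactory receptor genes were brighter. The 3 endocrine genes were next: 3.18% of the olfactory receptor genes were brighter than FGF21, 2.27% than FGF23 and 0.909% than FGF19. FGF9, FGF18, FGF11 and FGF5 were brighter than every olfactory receptor gene measured. No detection calls were used, so none of these positions shows presence or absence of a transcript. Limits on the change of a dim probe set are limits on its brightness and may say little of the RNA.

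**Figure D2:**
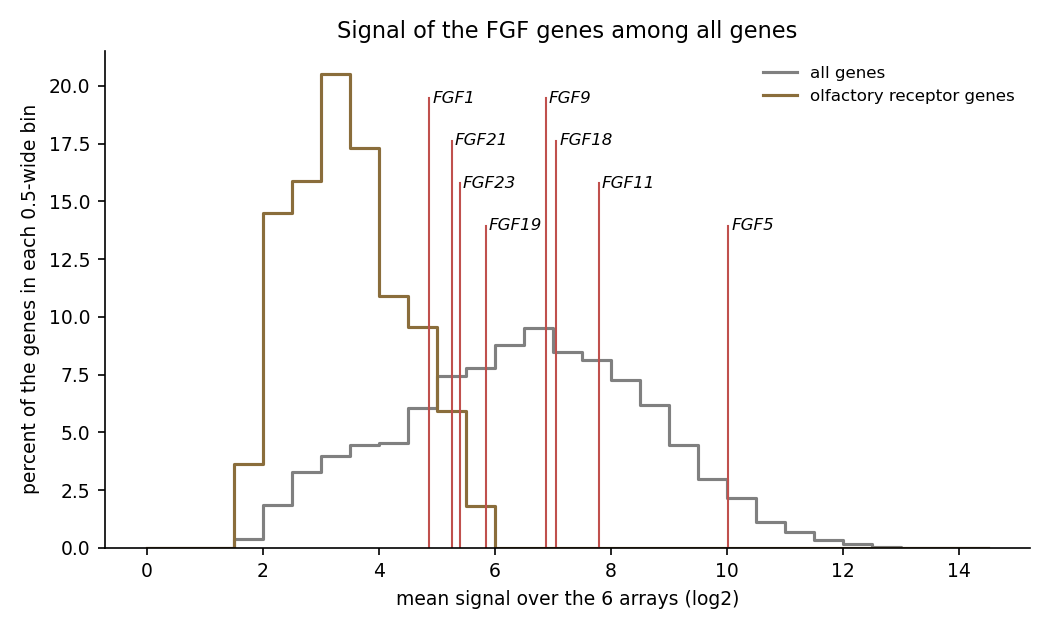
Percent of genes (y axis) by mean log2 signal over the 6 arrays (x axis, bins 0.5 wide) for all 14232 genes in grey and the 220 olfactory receptor genes in brown, with the 8 FGF genes as red lines of arbitrary height. FGF1, FGF21, FGF23 and FGF19 lie within the range of the olfactory receptor genes, and FGF9, FGF18, FGF11 and FGF5 to the right of it.

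Among the paracrine ligands, FGF5 had the brightest probe set. FGF5 is known for ending the growth phase of the hair follicle. It read 9.92, 10.03 and 10.08 on Klotho arrays 1, 2 and 3, against 9.96, 10.11 and 10.07 on control arrays 1, 2 and 3. Array 1 was the lowest of its group in both groups, and the groups overlapped almost entirely. The mean was 10.01 ± 0.08 in Klotho cells and 10.04 ± 0.08 in control cells (log2, SD, n = 3). The difference was -0.03 (SE 0.08, 95% interval -0.24 to 0.17, adjusted p = 0.998 in limma). As a ratio of Klotho to control signal, that interval ran from 0.848 to 1.13. The 6 readings of FGF5 spanned 0.18, the smallest range of the 8 FGF genes, and 11.7% of all genes spanned less. With 1 array left out, the difference was between -0.08, without control array 1, and 0.01, without Klotho array 1.

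FGF18, a ligand known for cartilage and bone growth, read 7.25, 7.11 and 6.85 on Klotho arrays 1, 2 and 3, against 6.93, 7.15 and 7.10 on control arrays 1, 2 and 3. The highest and the lowest reading were both Klotho arrays. The mean was 7.07 ± 0.20 in Klotho cells and 7.06 ± 0.12 in control cells (log2, SD, n = 3), a difference of 0.01 (SE 0.13, 95% interval -0.30 to 0.31). It was -0.08 without Klotho array 1 and 0.12 without Klotho array 3, with no call in either.

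FGF9, a ligand made by neurons and glia and needed for testis development, read 6.57, 6.95 and 7.15 on Klotho arrays 1, 2 and 3, against 7.17, 6.70 and 6.76 on control arrays 1, 2 and 3. Klotho array 1 was the lowest and control array 1 the highest of the 6. The mean was 6.89 ± 0.29 in Klotho cells and 6.87 ± 0.26 in control cells (log2, SD, n = 3), and the difference of 0.01 had an SE of 0.19, the largest of the 8 genes. Its 95% interval ran from -0.44 to 0.47. The 6 readings spanned 0.60, and 88.4% of all genes spanned less, so the equal means stand beside a wide scatter within each group. With 1 array left out, the difference was between -0.11, without Klotho array 3, and 0.17, without Klotho array 1, and it was 0.16 without control array 1.

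FGF1, acidic FGF, binds every FGF receptor and leaves the cell without a classical signal peptide. It read 4.98, 4.83 and 4.82 on Klotho arrays 1, 2 and 3, against 4.76, 4.72 and 5.12 on control arrays 1, 2 and 3. Control array 3 was the highest reading and the other 2 control arrays were the lowest pair, so all Klotho readings fell inside the control range. The mean was 4.88 ± 0.09 in Klotho cells and 4.87 ± 0.22 in control cells (log2, SD, n = 3), a difference of 0.01 (SE 0.13, 95% interval -0.30 to 0.32). Without control array 3 the difference was 0.14, and without control array 2 it was -0.07, with no call in either.

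The intracellular FGF11 read 7.66, 7.73 and 7.80 on Klotho arrays 1, 2 and 3, against 8.06, 7.78 and 7.77 on control arrays 1, 2 and 3. Control array 1 stood above the other 5 readings, and Klotho array 3 lay above control arrays 2 and 3. The mean was 7.73 ± 0.07 in Klotho cells and 7.87 ± 0.17 in control cells (log2, SD, n = 3). The difference of -0.14 (SE 0.11, 95% interval -0.40 to 0.11; limma, adjusted p = 0.998) was the lowest of the 8. It was -0.05 without control array 1.

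The endocrine ligands are those for which a Klotho protein is the co-receptor. FGF19, the gut hormone that restrains bile acid synthesis in liver, read 6.02, 5.78 and 5.68 on Klotho arrays 1, 2 and 3, against 5.77, 5.84 and 6.00 on control arrays 1, 2 and 3. The control readings all lay within the range of the Klotho readings. The mean was 5.83 ± 0.17 in Klotho cells and 5.87 ± 0.12 in control cells (log2, SD, n = 3), a difference of -0.04 (SE 0.12, 95% interval -0.32 to 0.24). It was -0.14 without Klotho array 1 and 0.03 without Klotho array 3, with no call in either.

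FGF21, a hormone released by liver and other tissues in fasting and cell stress, read 5.37, 5.37 and 5.27 on Klotho arrays 1, 2 and 3, against 5.03, 5.29 and 5.22 on control arrays 1, 2 and 3. Klotho arrays 1 and 2 were the 2 highest, control array 1 the lowest, and Klotho array 3 fell just below control array 2, so the groups overlapped by that pair alone. The mean was 5.34 ± 0.06 in Klotho cells and 5.18 ± 0.13 in control cells (log2, SD, n = 3). The difference of 0.16 (SE 0.09, 95% interval -0.07 to 0.39) had the smallest unadjusted p of the 8 genes in limma, 0.14, and an adjusted p of 0.998. In linear terms the Klotho signal was 1.12 times the control signal, with an interval from 0.954 to 1.31. Without control array 1 the difference was 0.09.

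FGF23, the bone hormone that lowers phosphate and active vitamin D through Klotho, read 5.86, 5.31 and 5.31 on Klotho arrays 1, 2 and 3, against 5.45, 5.33 and 5.16 on control arrays 1, 2 and 3. Klotho array 1 was the highest by far, and Klotho arrays 2 and 3 lay inside the control range. The mean was 5.49 ± 0.32 in Klotho cells and 5.31 ± 0.15 in control cells (log2, SD, n = 3). The difference of 0.18 (SE 0.17, 95% interval -0.23 to 0.60; limma, adjusted p = 0.998) was the highest of the 8 and rested on 1 array: without Klotho array 1 it was 0.00. The 6 readings spanned 0.70, and 93.2% of all genes spanned less.

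The intervals give a range for each difference in signal. They rest on the same spread as the p-values, which may be only technical, and may be too narrow for separate cultures. For 7 of the 8 FGF genes the 95% interval stayed inside a 1.5-fold rise or fall, against 91.7% of all genes, the exception being FGF23, whose interval reached 1.52-fold higher. Standard errors of the FGF differences ran from 0.08 to 0.19, beside a median of 0.11 over all genes. These intervals hold gene by gene, apply to 3.5 h only and bound the signal of the probe set.

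**Figure D3:**
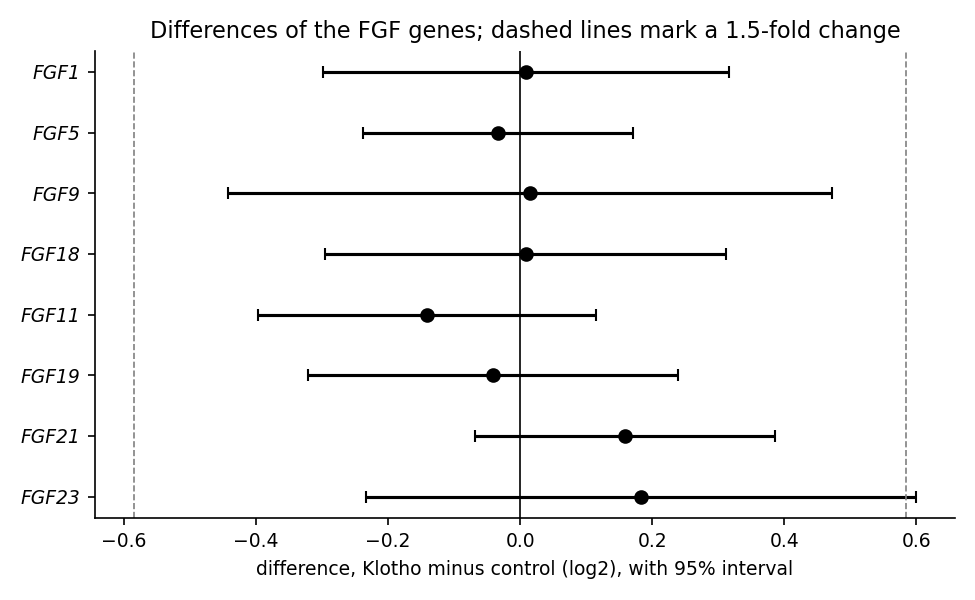
Difference in log2 signal, Klotho minus control (x axis), for each of the 8 FGF genes, with the point as the estimate and the bar as the 95% interval from limma (n = 3 per group); dashed lines mark a 1.5-fold change in either direction. Every interval contains 0, and only that of FGF23 reaches past a dashed line.

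Across the 6 arrays, Klotho array 1 gave more of the extreme readings than any other array. It gave the highest reading for 4 of the 8 FGF genes (FGF18, FGF19, FGF21 and FGF23) and the lowest for 3 (FGF5, FGF9 and FGF11). Over all genes, Klotho array 1 was the highest array for 14.0% and the lowest for 28.5%, and control array 1 the highest for 33.8% and the lowest for 13.8%. The part of these array-wide differences in the FGF readings was not tested. The genes at or above the lower quartile whose profile over the 6 arrays was nearest to that of FGF23, the FGF gene with the widest range, were GUSBP5 (Pearson r = 0.98, Spearman rho = 0.83), TNFRSF10C (r = 0.98, rho = 0.66) and EPHB6 (r = 0.97, rho = 0.83), out of 11014 compared. The 2 readings farthest from the median of FGF23 were Klotho array 1 and control array 3. Without them r was 0.61, 0.46 and 0.53 in the same order of genes. Of the 11014 genes, 12 had an r over 0.95, and how many would reach it by chance was not tested. Symbols of the LOC, FAM, KIAA, open reading frame, antisense and small or non-coding RNA kinds had been left out beforehand. The named genes were picked for the highest r, so a fall in r without extreme readings cannot tell a real likeness from noise. These are descriptions over 6 arrays that share their normalization.

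The rest of the FGF family was examined in the same way. Of 12 other FGF genes, 9 were measured and 0 passed in either direction, with differences from -0.13 to 0.09 and a median of 0.04. As deposited 6 were above 0, and 7 or 8 under the 3 other scalings. FGF12, another intracellular FGF, averaged 3.87 ± 0.20 in Klotho cells and 3.99 ± 0.06 in control cells (log2, SD, n = 3). FGF20, a paracrine relative of FGF9, differed by 0.08, FGF10, a mesenchymal ligand of lung and limb growth, by 0.09, and FGF8, a patterning ligand of the embryo, by 0.08. All 9 intervals lay within a 1.5-fold change. The FGF10 and FGF12 probe sets were dim, with means of 3.05 and 3.93 over the 6 arrays. Of the olfactory receptor genes, 64.1% were brighter than FGF10 and 29.5% than FGF12. Their intervals bound brightness and may say little of the RNA.

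None of the genes that bind, carry or read FGFs passed either. Among 7 receptors and co-receptors, 2 differences were above 0 and 5 below as deposited, where 62.6% of all genes were below 0. With each array centred on its median, with quantile normalization and with cyclic loess, 4 of the 7 were above 0 and 3 below. KLB, beta-Klotho, read 4.77, 4.71 and 4.70 on Klotho arrays, against 4.41, 4.75 and 4.54 on control arrays, and control array 2 lay inside the Klotho range. Its difference was 0.16 (95% interval -0.09 to 0.41). The KLB probe set was dim, with a mean of 4.65 over the 6 arrays, and 14.1% of the olfactory receptor genes were brighter. FGFRL1, a receptor relative without a kinase domain, was lower on each Klotho array than on any control array, with a difference of -0.17 (95% interval -0.41 to 0.06). FGFR4 differed by -0.12 and FGFR2 by -0.06.

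Of 12 measured carriers and surface partners, 2 differences were above 0 and 10 below as deposited, 6 and 6 with median centring, and 4 and 8 with quantile normalization or cyclic loess. SDC1, the heparan sulfate proteoglycan syndecan-1, had the smallest p. SDC1 read 6.61, 6.58 and 6.67 on Klotho arrays, against 7.06, 6.75 and 6.82 on control arrays, with no overlap. The difference was -0.26 (95% interval -0.50 to -0.01), with an unadjusted p of 0.0439 and an adjusted p of 0.998 in limma. SDC1 was the 1 gene of the 12 with an unadjusted p under 0.05, against 2.07% of all genes. GPC4, a glypican, differed by -0.18, FLRT1, a membrane partner of FGF receptors, by -0.17 and FGFBP1, a carrier that frees FGFs from the matrix, by -0.21. The FGFBP1 probe set was dim, with a mean of 3.59 over the 6 arrays. Of 12 enzymes that build or edit heparan sulfate, 4 were above 0 and 8 below as deposited, a share below 0 of 66.7% beside the 62.6% of all genes. The split was 7 and 5 with median centring, 6 and 6 after quantile normalization and 5 and 7 after cyclic loess. The sulfotransferase NDST1 differed by -0.14 and HS6ST3 by 0.13.

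All 8 measured adapters and effectors of the receptors had differences below 0, with a median of -0.14, where 62.6% of all genes were below 0 and 0 of the 8 passed. All 8 stayed below 0 with each array centred on its median, with quantile normalization and with cyclic loess, with medians of -0.09 in each, beside 42.7%, 46.8% and 50.3% of all genes. FRS3, a docking protein of FGF receptors, read 5.73, 5.89 and 5.87 on Klotho arrays, against 6.13, 6.25 and 5.90 on control arrays, a difference of -0.27 (95% interval -0.54 to 0.01). SHC1, an adapter, differed by -0.16, PLCG1, the phospholipase that binds activated FGF receptors, by -0.13 and PTPN11, the phosphatase SHP2, by -0.12. Control array 1 gave the highest reading for SHC1, PLCG1 and PTPN11, and for 33.8% of all genes. For FRS3 it was control array 2. The 8 genes were read on the same arrays, and whether their shared direction rested on 1 array was not tested.

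Genes that answer FGF receptors were next. Of 15 measured response and feedback genes, 2 were above 0 and 13 below as deposited, with a median of -0.04 and 0 passing, and 9 or 10 were above 0 under the 3 other scalings, so the direction of this list turned with the scaling. DUSP4, a phosphatase induced by ERK, differed by -0.17, and the ETS factors ETV1, ETV5 and ETV4, which FGF signalling is known to induce, by -0.10, -0.06 and -0.09. All 15 intervals lay within a 1.5-fold change.

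Genes tied to the making, processing or restraint of the endocrine FGFs had a median difference of 0.05, and 0 passed. Of 10 measured, 7 were above 0 and 3 below as deposited. Quantile normalization and cyclic loess gave the same split, and median centring gave 8 and 2. The list holds genes with opposite roles for FGF23, such as VDR and DMP1, so the split has no single meaning. VDR, the vitamin D receptor through which FGF23 is induced in bone, read 5.39, 5.58 and 5.37 on Klotho arrays, against 4.87, 5.07 and 5.32 on control arrays. The groups did not overlap, but control array 3 came close to the Klotho readings. The difference was 0.36 (95% interval 0.04 to 0.69), with an unadjusted p of 0.0346 and an adjusted p of 0.998 in limma. VDR was the 1 gene of the 10 with an unadjusted p under 0.05, against 2.07% of all genes. Its mean over the 6 arrays was 5.27, and 3.18% of the olfactory receptor genes were brighter. DMP1, a bone matrix protein that restrains FGF23, differed by 0.33, GALNT3, the enzyme that protects FGF23 from cleavage, by 0.14 and ATF4, the stress factor that induces FGF21, by -0.09. The GALNT3 and DMP1 probe sets were dim, with means of 2.55 and 3.48 over the 6 arrays. Of 4 measured genes tied to export of FGF1 and FGF2, S100A13, which travels with FGF1, differed by 0.17 and SYT1, ANXA2 and TEC by -0.08, -0.06 and -0.04.

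**Figure D4:**
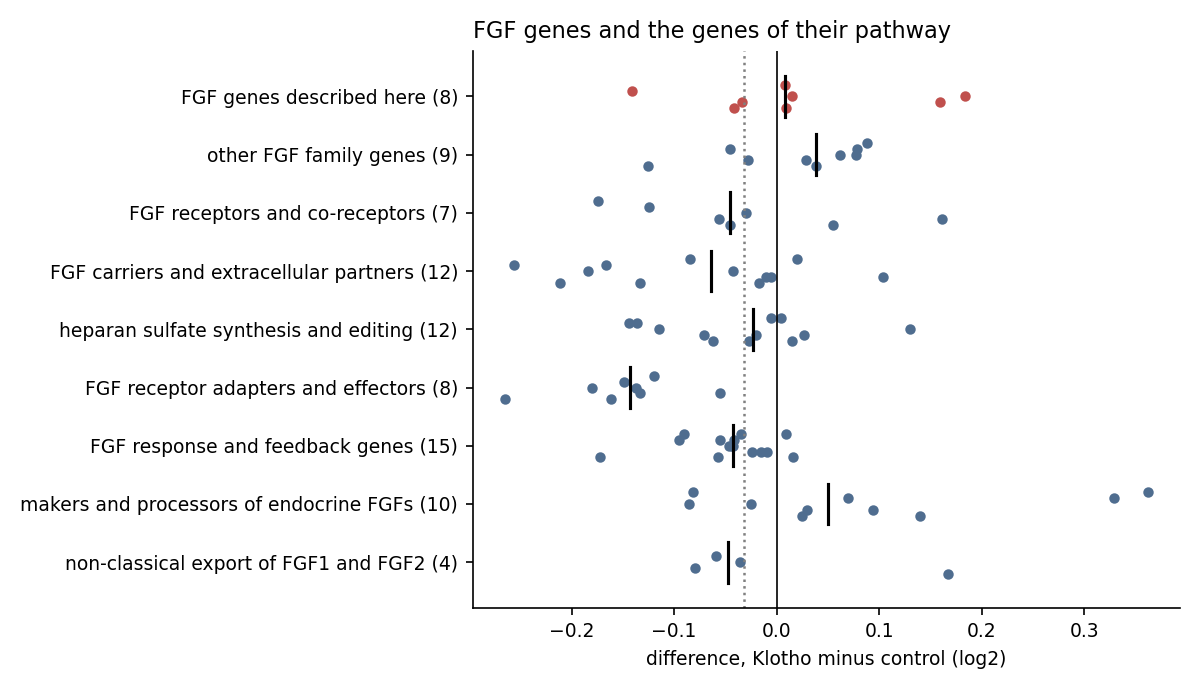
Difference in log2 signal, Klotho minus control (x axis), of each measured gene, with the 8 FGF genes described here in red and the lists of pathway genes in blue (number of genes in brackets; vertical offsets only separate the points). Black bars mark the median of each list and the dotted line the median of all genes (-0.03); the adapter list lies wholly below 0 and every other list spans 0.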

How the data were processed

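Total RNA (100 ng per sample, amplified and biotin-labelled) was measured on 6 arrays. The authors deposited 1 table of log2 values, and RMA is named, without a version, per the submitters' processing notes. The sources used here give no software, annotation, probe filter or scan batch, and no batch could be examined. The values of all 22011 probe sets, as deposited, were fitted in R 4.3.3 by lmFit and eBayes of limma 3.58.1 (2-sided, Benjamini-Hochberg over all probe sets, threshold 0.05). Of these probe sets, 14432 carried 1 gene symbol, 2408 several and 5171 none; a gene was represented by its brightest probe set of 1 symbol over the 6 arrays. All 8 measured FGF genes matched RefSeq (GRCh38.p14) by Entrez number with the same symbol. The fit was tested on simulated data.

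The members, gene lists and tests were chosen with earlier results of these data known. Named are all FGF members, up to 4 genes of smallest p per list and the 3 genes nearest in profile to the FGF member of widest range. Precision is limited by the number of arrays, which have no sequencing depth. Alternatives covered scaling, dim or unnamed probe sets, variance model, array weights, replicate block, probe set averaging and leaving out each array. Replicate numbers come from the sample titles; deviations of same-numbered arrays correlated at -0.18, 0.06 and -0.14, so the numbers were not taken to pair the samples.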

Additional observations from a re-analysis of the deposited data

How the results depend on the processing

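The count of FGF genes past the adjusted threshold was 0 as reported and 0 under each of the 16 alternatives, with 0 at an unadjusted p under 0.05 in each of them. The limma count over the table was 0 under each of the 15 alternatives run. At an unadjusted p under 0.05 there were between 577 and 1644 where all 22011 probe sets were fitted, against 703 as reported, 436 of the 16508 left without dim probe sets and 447 of the 14432 with 1 symbol. The replicate block also gave 0 and 0. Signs were less steady: of 128 values for the 8 genes under the alternatives, 17 had the opposite sign, none of them a called difference. The probe set filters, variance models, replicate block and averaging left every one of these differences unchanged. Sign changes could therefore come only from scaling, array weights or leaving out an array, and the 17 understate how unsteady the signs were. FGF11 stayed below 0 (-0.19 to -0.05) and FGF21 above 0 (0.09 to 0.21) throughout, whereas FGF1, FGF5, FGF9, FGF18, FGF19 and FGF23 changed sign under 1 to 4 alternatives. Median centring put 7 of the 8 above 0, against 5 as reported and 5 with quantile normalization or cyclic loess. Each gene had 1 probe set annotated with its symbol alone, so averaging left each difference as it was. The shared probe sets of FGF5 and FGF11 did not enter the averaging. All 8 genes passed the filter on dim probe sets.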
